A study of Mus musculus with 8 samples.

Results

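Stromal macrophages (SMs) of mice on a high-fat diet (HFD) were compared with SMs of mice on a normal diet (ND), in 4 of the 8 RNA-seq libraries of a study of epididymal white adipose tissue (eWAT). SMs are the macrophages sorted from the stromal vascular fraction that sinks when collagenase-digested fat is spun, whereas the adhesion-related macrophages (ARMs) of the other 4 libraries stay with the floating adipocytes. All mice were wild-type C57BL/6J males whose diets began at 6 weeks of age, and HFD, a diet with 60% fat, was fed for 8 weeks. Each ND library pooled 10 mice and each HFD library pooled 6 mice, so n is 2 libraries for each diet, and CD45+, CD11b+, F4/80+ cells were sorted for all of them. Genes were kept if both diets' tables listed them, their counts were whole numbers in all 8 libraries, and the gene length implied by count and FPKM in replicate 1 differed between diets by a ratio of 0.9 to 1.1. Of the 16136 genes found for both diets, 6207 were kept, and they held 7650067 and 8134082 counts in the ND libraries and 9620264 and 9591593 in the HFD libraries. Just inside the limits lay Fcrl1 at 0.901 and Prpf38a at 1.0999, and just outside lay Tarm1 at 0.899 and Gm13889 at 1.10001. The median implied length in ND SM replicate 1 was 2884 bases for genes kept. It was 1121 bases for genes with whole counts that were left out above the limit of 1.1, so short genes are thinly covered. Each diet has a table of its own, and the share of counts that were not whole numbers was 8.55% to 9.36% on ND and 32.3% to 32.9% on HFD, so diet and table cannot be told apart in any value below.

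Macrophages of adipose tissue take up and store lipid, clear dying adipocytes, recycle iron and answer microbial or fatty signals through Toll-like receptors. Such signals free NF-kB, which switches on cytokine genes together with the inhibitors that shut it off again, while AP-1 and EGR factors are made within minutes of a stimulus. Resident macrophages with scavenger and efferocytosis receptors, and macrophages newly made from monocytes, are both known from this tissue.

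The sorted cells carried the macrophage program on both diets. The summed level of 12 macrophage marker genes was 9917 and 10017 FPKM (fragments per kilobase of transcript, scaled to the depth of the library, and so a level per gene length) on ND and 8745 and 8231 FPKM on HFD. Over the 5 of these markers kept by the rule, the sum was 1299 and 1332.8 FPKM on ND and 1258.2 and 1295.5 FPKM on HFD. The sum of the 12 markers and the sums of other lists below include genes left out by the rule. The different processing of the tables may bear on them. Adgre1, the gene of the F4/80 antigen used in the sort, had 306 and 339 FPKM on ND and 331 and 331 FPKM on HFD. All 4 SM libraries thus held macrophage transcripts at levels that far exceeded the markers of other cells described next.

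Transcripts of matrix-making and vessel-wall cells were present at low levels and were higher on HFD. A gene was called when edgeR's quasi-likelihood test gave a fold change over 1.5 and a Benjamini-Hochberg adjusted p under 0.05, and 15.8% of the 5712 genes tested were called, 11.7% higher on HFD and 4.17% lower. Both HFD libraries lay above both ND libraries in 36.6% of genes and below them in 34.9%. Against these shares, 8 of 12 fibroblast and progenitor markers, 8 of 11 endothelial, 7 of 9 mesothelial and 4 of 5 pericyte and smooth muscle markers that could be tested were called higher, and 0 were called lower. CPM are counts per 1e6 reads on the tested genes of a library, scaled by the normalization factors of the fit. Msln, a surface protein of the mesothelium that lines the fat pad, had 2.31 and 2.53 CPM on ND and 12.98 and 6.78 CPM on HFD. Rgs5, a pericyte regulator of G-protein signaling, had 12.3 and 13.8 CPM on ND and 49.3 and 31.7 CPM on HFD. Both HFD libraries lay above both ND libraries for each, and replicate 1 of the HFD SMs held the most.

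Over all listed markers in both tables, the summed fibroblast level was 240.5 and 298 FPKM on ND and 340.3 and 330.0 FPKM on HFD. The mesothelial sum was 7.73 and 9.99 FPKM on ND and 21.7 and 12.4 FPKM on HFD. The endothelial sum was 23.6 and 27.3 FPKM on ND and 43.4 and 31.8 FPKM on HFD, and the pericyte sum 11.7 and 10.3 FPKM on ND and 24.2 and 16.3 FPKM on HFD. Fewer cells of a type and less RNA per cell cannot be told apart in such bulk samples. No marker of these 4 lists was at 0 in every SM library, and their part in the diet differences below was not tested. Without replicate 1 of the HFD SMs the log2 fold changes of Gpm6a (0.65 instead of 1.52), Tie1 (0.66 instead of 0.97), Esam (0.83 instead of 1.03) and Robo4 (0.90 instead of 1.16) were not called. Without ND replicate 1 Gpm6a (1.48), Tie1 (0.87) and Esam (0.78) were not called, nor was Gpm6a without ND replicate 2 (1.54).

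**Figure D1:**
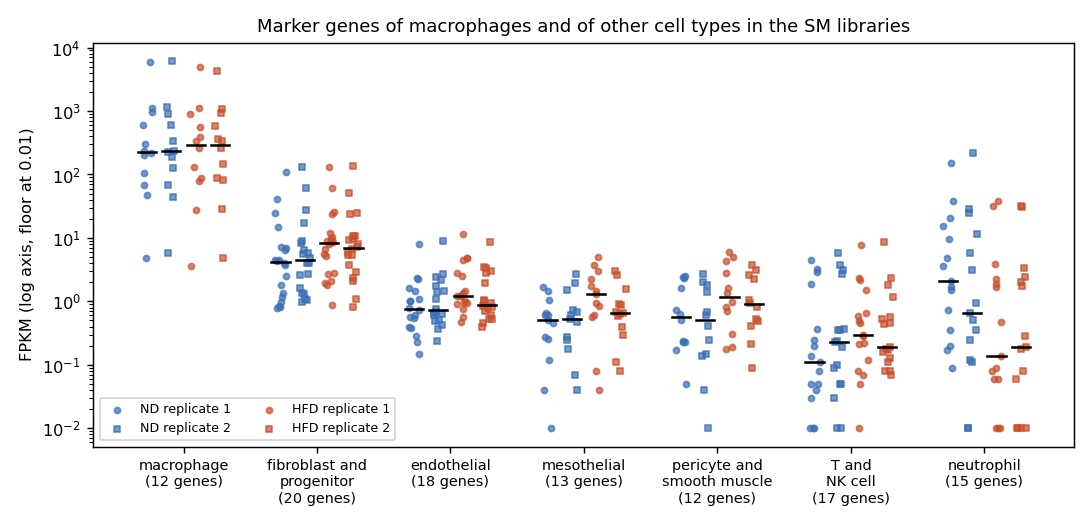
FPKM of each marker gene (points, log axis with values under 0.01 drawn at 0.01) in the 4 SM libraries, by cell type, with black bars at the median of the genes in a library. The macrophage markers reach the highest levels, with sums of 8231 to 10017 FPKM in a library, against 7.73 to 21.7 FPKM for the mesothelial markers.

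Neutrophil transcripts did not move together. S100a8 and S100a9, the calgranulins that fill neutrophils, were left out by the rule on whole counts and lengths, and were listed at 15.7 and 11.6 FPKM (S100a8) and 37.8 and 28.4 FPKM (S100a9) on ND. On HFD they were listed at 1.89 and 1.75 FPKM and at 3.84 and 3.40 FPKM. Ly6g, which defines mouse neutrophils, was listed at 0.090 FPKM in one ND library and at 0 in the other 3, and Cxcr2, their chemokine receptor, also left out, was at 0.720 and 0.660 FPKM on ND and 2.27 and 2.40 FPKM on HFD. The summed neutrophil list, which includes Mmp9, was 252 and 293 FPKM on ND and 79.9 and 72.9 FPKM on HFD. Cd28 and Cd4, receptors of T cells of which Cd4 is also made by macrophages, were the only 2 of the T and NK list that could be tested, and both were called lower. The sum of the list was 13.8 and 17.5 FPKM on ND and 17.3 and 17.1 FPKM on HFD. Cd28 had 23.5 and 25.1 CPM on ND and 13.5 and 10.4 CPM on HFD, and Cd4 had 18.1 and 20.8 CPM on ND and 13.5 and 11.4 CPM on HFD. Without replicate 2 of the HFD SMs or replicate 2 of the ND SMs Cd4 was not called, with a log2 fold change of -0.53 and -0.54.

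Across all genes tested, 667 were called higher in SMs on HFD and 238 lower, and the median log2 fold changes of these sets were 0.97 and -0.77. A change of more than 2-fold was fitted for 310 of the former and 57 of the latter. An unadjusted p under 0.05 was found for 2921 genes, and the median log2 fold change of all genes was 0.01. The split moved with the scale of the values: a correction for GC content and transcript length gave 440 higher and 265 lower, and limma on log2(FPKM + 0.1) gave 331 higher and 452 lower on a scale where the median of all genes was -0.17. Transcripts of genes called higher had a median GC content of 55.4%, those called lower 45.5% and all tested 50.3%, and the part of this in the result was not tested. With 2 libraries against 2, an exact permutation test cannot give a two-sided p under 0.333 for a single gene, so the calls rest on a spread shared across genes.

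The genes with the largest increases at a level of 10 CPM or more included matrix and clotting regulators, a kinase and stress-response genes. Ctgf, a matricellular growth factor, had 1.67 and 0.602 CPM on ND and 13.7 and 11.7 CPM on HFD, a fold change of 11.2 (log2 3.49, SE 0.32, edgeR adjusted p = 7.35e-09). Map3k6, a stress-activated kinase, had 35.7 and 38.4 CPM on ND and 236 and 214 CPM on HFD, 6.06-fold higher (SE 0.10 on the log2 scale, edgeR adjusted p = 2.91e-15). Both HFD libraries lay above both ND libraries for each of the 14 leading increases shown here, which was a condition for naming them. Of the 905 called genes, 903 had groups that did not overlap.

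Wee1, the kinase that holds cells before mitosis, had 18.9 and 24.7 CPM on ND and 152 and 110.2 CPM on HFD. Fkbp5, a co-chaperone of steroid receptors, had 37.9 and 40.7 CPM on ND and 237 and 152 CPM on HFD. These rises were 6.004- and 4.95-fold.

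Angptl4, a secreted inhibitor of lipoprotein lipase, had 39.1 and 46.2 CPM on ND against 169 and 172 CPM on HFD. Thbd, thrombomodulin of the anticoagulant pathway, had 213 and 231 CPM on ND and 867 and 784 CPM on HFD. Adrb1, a receptor for noradrenaline, had 5.27 and 3.49 CPM on ND and 18.8 and 19.3 CPM on HFD. The folds were 3.98, 3.72 and 4.36. Hmcn2, Notch3, Cilp, Jund, Oasl1, Arhgap22 and Stac2 completed these 14, with log2 fold changes from 1.89 for Stac2 to 3.09 for Hmcn2. Notch3, of the pericyte list, rose together with the vessel-wall markers given above.

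**Figure D2:**
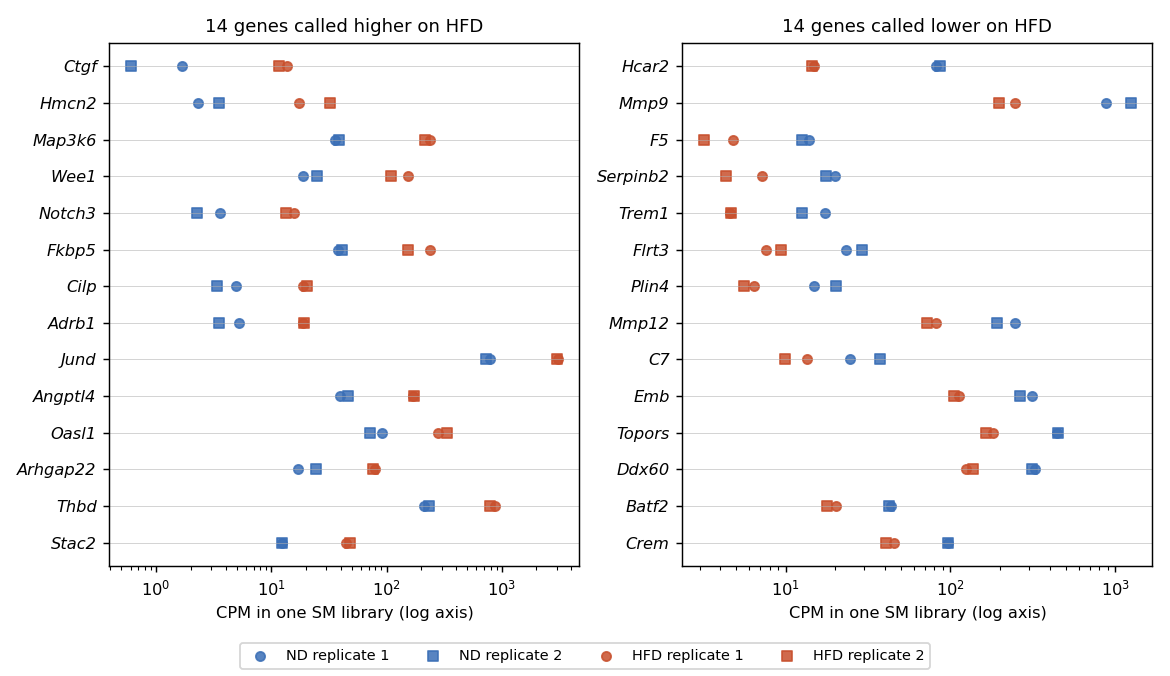
CPM (log axis) of 14 genes with leading increases and 14 with leading decreases on HFD among called genes of at least 10 CPM, one point for each SM library. Blue ND and red HFD points are separate for every gene shown, which was a condition for showing it. Ctgf had 1.67 and 0.602 against 13.7 and 11.7 CPM, and Hcar2 had 81.2 and 86.5 against 14.8 and 14.4 CPM.

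Among decreases the largest was that of Hcar2, the receptor for nicotinic acid and the ketone body beta-hydroxybutyrate, with 81.2 and 86.5 CPM on ND and 14.8 and 14.4 CPM on HFD (5.74-fold lower, log2 -2.52, SE 0.12, edgeR adjusted p = 5.05e-14). Mmp9, a gelatinase made by neutrophils and macrophages, had 885 and 1249.8 CPM on ND and 246 and 197 CPM on HFD, 4.83-fold lower. Mmp12, the macrophage elastase, had 248 and 193 CPM on ND and 81.2 and 72.0 CPM on HFD, 2.87-fold lower. Separation of the HFD from the ND libraries was again a condition for naming these leading decreases.

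Trem1, an activating receptor of myeloid cells, had 17.2 and 12.5 CPM on ND and 4.58 and 4.66 CPM on HFD. Serpinb2, an inhibitor of urokinase induced in activated macrophages, had 19.8 and 17.7 CPM on ND and 7.13 and 4.34 CPM on HFD. Mmp9 is itself on the neutrophil list, and S100a8 and S100a9 were also listed lower in both HFD libraries, while Cxcr2 was listed higher. The part of neutrophil transcripts in these decreases was not tested. Emb, Topors, Ddx60, Batf2 and Crem fell by 1.3999, 1.36, 1.28, 1.18 and 1.17 on the log2 scale. Crem encodes repressors of cAMP-driven transcription, and Batf2 and Ddx60 are known as interferon-induced genes. F5, Flrt3, Plin4 and C7 completed the 14 leading decreases shown here, from -1.73 for F5 to -1.41 for C7.

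Of 15 NF-kB feedback genes tested 5 were called higher and 0 lower, beside 11.7% and 4.17% of all genes, and their median log2 fold change was 0.42 beside 0.01 over all genes. Bcl3, a nuclear partner of NF-kB p50, had 151 and 159.9 CPM on ND and 339 and 334 CPM on HFD, 2.17-fold higher. Tnfaip3, the A20 enzyme that ends NF-kB signaling, had 1763 and 1867 CPM on ND and 3122 and 3503 CPM on HFD, 1.82-fold higher. Both HFD libraries were above both ND libraries for each of the 5, as for 666 of the 667 genes called higher. Nfkbia, which encodes the inhibitor IkB-alpha, rose 1.68-fold, its nuclear relative Nfkbid 1.66-fold, and Tnfaip2 1.64-fold. After the GC and length correction the log2 fold change of Nfkbid was 0.44, no longer called, and on the FPKM scale of limma neither Nfkbia at 0.54 nor Nfkbid at 0.57 was called.

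Of 10 inflammatory cytokines and mediators tested, 3 were called higher and 0 lower, beside 11.7% and 4.17% of all genes. Their median was 0.37. Tnf, the cytokine upstream of this pathway, had 1176 and 1057 CPM on ND and 1908 and 2052 CPM on HFD (1.77-fold higher, SE 0.09 on the log2 scale, edgeR adjusted p = 4.75e-08). Lif and Csf1, a cytokine of the interleukin-6 family and the macrophage growth factor, had at most 21.5 CPM in any SM library. Their log2 fold changes were 0.87 and 0.59, and DESeq2 gave adjusted p = 0.0779 for Lif. Lif lost its call without either HFD library (0.94 without replicate 1, 0.79 without replicate 2) or without ND replicate 2 (0.52), and Csf1 without HFD replicate 2 (0.51) or ND replicate 1 (0.56) and after the GC and length correction (0.39). Nos2, the inducible nitric oxide synthase, had 1.54 and 0.120 CPM on ND and 1.28 and 0.741 CPM on HFD, and the groups overlapped.

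Ccl22, a chemokine that draws regulatory T cells, was the only one of 14 CC chemokines that could be tested, with 22.8 and 18.9 CPM on ND and 46.3 and 64.1 CPM on HFD, and was called higher. Cd83, a maturation marker of antigen-presenting cells, was the only one of 4 MHC class II presentation genes called, with 927 and 1156 CPM on ND and 1934 and 1811 CPM on HFD. Of 13 Toll-like receptors and adaptors, the adaptor Ticam1 was called higher (68.8 and 77.9 CPM on ND, 145 and 147 CPM on HFD). Tlr11 was called lower (10.8 and 12.5 CPM on ND, 5.22 and 5.72 CPM on HFD). Of 9 interferon-stimulated genes tested 1 was called, Oasl1, with 90.9 and 71.5 CPM on ND and 279 and 333 CPM on HFD. The Toll-like receptor list had a median of 0.03 and the interferon list one of 0.02, both of which changed sign under other scalings, so no direction is given for either. C5ar1, the receptor for the anaphylatoxin C5a, was the only complement gene of 5 called, with 1073 and 1294 CPM on ND and 1924 and 1685 CPM on HFD. It fell short of 1.5-fold after the GC and length correction (log2 0.58), without HFD replicate 1 (0.51) and without ND replicate 1 (0.46).

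Immediate-early factors were unevenly raised. Of 20 tested 8 were called higher and 1 lower, beside 11.7% and 4.17% of all genes, with a median of 0.25. Jund, an AP-1 subunit that restrains proliferation, had 786 and 730.2 CPM on ND and 3080.2 and 3004 CPM on HFD, 4.01-fold higher. Fosb, another AP-1 subunit, had 2728 and 3648 CPM on ND and 8099.6 and 7440.4 CPM on HFD, 2.44-fold higher. The Krüppel-like factors Klf2 and Klf4, which restrain inflammation in myeloid cells, rose 3.25- and 2.34-fold, and Myc rose 1.95-fold.

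The feedback genes of the same list that act on kinases and on mRNA were also higher. Zfp36, tristetraprolin that destroys cytokine mRNAs, had 7079.9 and 7752 CPM on ND and 13206 and 12422 CPM on HFD. Dusp1, a phosphatase of MAP kinases, had 2623 and 2628 CPM on ND and 4667 and 4264 CPM on HFD. Maff completed the 8 called higher at 1.62-fold, and the antiproliferative gene Btg2 was called lower, with 1383 and 1393 CPM on ND and 891 and 827 CPM on HFD.

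The best known members did not pass. Fos had 3932 and 4076 CPM on ND and 5014 and 4549 CPM on HFD, Jun had 2601 and 2435 against 2871 and 2721 CPM, and Egr1 had 9486 and 9780.1 against 8675 and 9074 CPM. Their log2 fold changes were 0.26, 0.15 and -0.12. Junb, at 0.38, had the opposite sign after the GC and length correction.

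**Figure D3:**
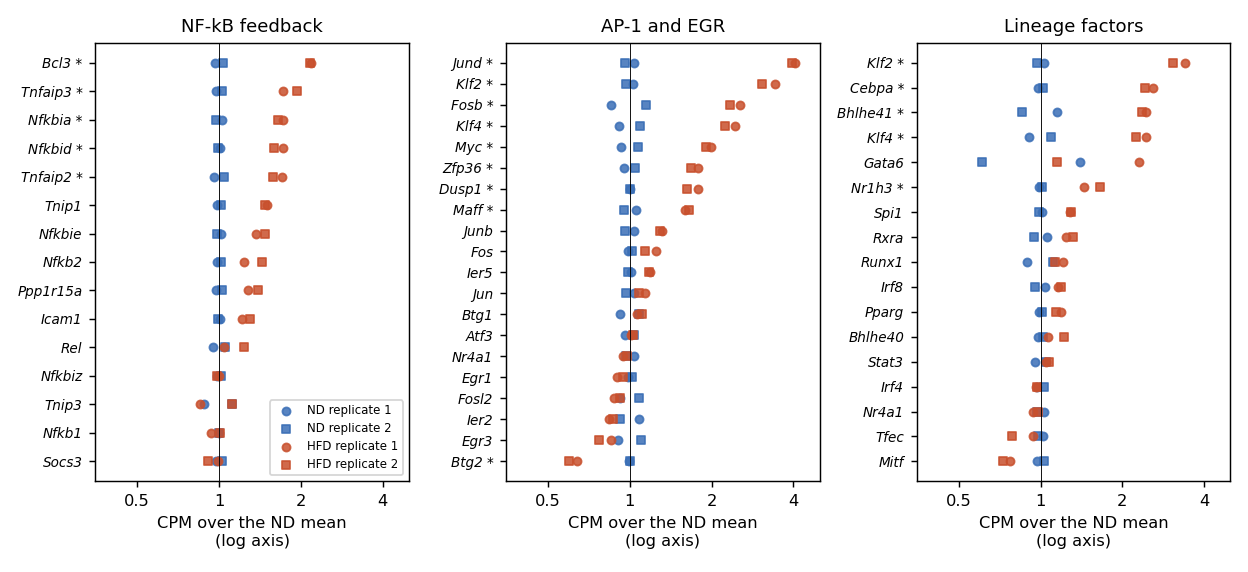
CPM of each tested member of the NF-kB feedback, AP-1 and EGR, and lineage transcription factor lists in the 4 SM libraries, divided by the gene's mean on ND (log axis). An asterisk marks a gene called; red HFD points lie near 4 for Jund and near 2 for Bcl3 and close to 1 for Egr1 and Nfkb1.

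Promoters of several of these genes hold the letters such factors bind. The 5 shown are examples and not the outcome of a rule, since other called genes, such as Tnfaip3, Lif and Nfkbid, also hold such letters. Mmp13, Mmp12 and F13a1 are called genes of lists described below. Each is a RefSeq window of 250 bases before to 50 bases after the annotated start (GRCm38.p6), written on the strand of the gene with the matches in capitals. A match to GGGACTTTC, GGGAATTTC (NF-kB), TGACTCA (AP-1), GAAANNGAA (interferon response) or GAGGAAGT (PU.1) was sought on either strand, and matches may overlap.
Nfkbia, chr12:55492598-55492897, minus strand: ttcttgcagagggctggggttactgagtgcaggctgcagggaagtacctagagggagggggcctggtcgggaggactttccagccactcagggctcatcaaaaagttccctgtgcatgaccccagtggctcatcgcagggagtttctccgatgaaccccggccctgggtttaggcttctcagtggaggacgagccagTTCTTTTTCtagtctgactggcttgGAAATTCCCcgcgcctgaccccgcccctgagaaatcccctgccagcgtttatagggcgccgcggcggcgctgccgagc
Csf1, chr3:107760420-107760719, minus strand: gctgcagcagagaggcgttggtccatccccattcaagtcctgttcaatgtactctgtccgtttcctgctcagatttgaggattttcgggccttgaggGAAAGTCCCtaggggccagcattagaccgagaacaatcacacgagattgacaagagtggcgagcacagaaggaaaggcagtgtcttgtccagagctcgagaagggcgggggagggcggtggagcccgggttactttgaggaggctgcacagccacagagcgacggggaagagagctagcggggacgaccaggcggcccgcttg
Mmp13, chr9:7272264-7272563, plus strand: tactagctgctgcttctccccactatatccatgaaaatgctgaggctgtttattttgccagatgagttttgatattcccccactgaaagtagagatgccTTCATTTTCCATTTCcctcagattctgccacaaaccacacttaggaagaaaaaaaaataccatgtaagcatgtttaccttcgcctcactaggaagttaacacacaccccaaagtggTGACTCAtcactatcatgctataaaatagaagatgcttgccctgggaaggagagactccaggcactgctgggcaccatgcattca
Mmp12, chr9:7347124-7347423, plus strand: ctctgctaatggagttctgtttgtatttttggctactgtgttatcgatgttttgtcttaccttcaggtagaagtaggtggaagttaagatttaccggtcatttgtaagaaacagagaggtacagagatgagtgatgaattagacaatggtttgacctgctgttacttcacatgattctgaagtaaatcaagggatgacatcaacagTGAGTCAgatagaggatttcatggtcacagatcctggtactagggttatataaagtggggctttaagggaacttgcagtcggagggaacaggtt
F13a1, chr13:37049164-37049463, minus strand: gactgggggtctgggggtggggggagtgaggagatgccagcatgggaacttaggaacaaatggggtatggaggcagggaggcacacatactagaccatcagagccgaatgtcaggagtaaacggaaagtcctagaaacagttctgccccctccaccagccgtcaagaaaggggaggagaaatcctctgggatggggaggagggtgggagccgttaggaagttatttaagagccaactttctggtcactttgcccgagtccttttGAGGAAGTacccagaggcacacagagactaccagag

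The GGGAATTTC match of Nfkbia began 28 bases before the start and the GGGACTTTC match of Csf1 153 bases before. In both genes the letters lay on the strand opposite to the gene, as did those of Mmp12. AP-1 letters (TGACTCA or its reverse complement) began 35 bases before the start of Mmp13, which was called higher. They also began 44 bases before an annotated start of Mmp12, which was called lower. The same letters thus stood in promoters of genes that moved in opposite directions. Another window of Mmp12 (chr9:7344147-7344446), not shown, held no AP-1 letters but GAGGAAGT 88 bases before its start. In F13a1 the GAGGAAGT letters lay 14 bases after the start.

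Windows were found for 510 of 667 genes called higher and 184 of 238 called lower. TGACTCA was in 6.21% of 660 windows of genes called higher, 4.04% of 223 windows of genes called lower, 3.73% of windows of all genes tested and 5.2% of all 32851 windows. GAGGAAGT was in 1.36% of windows of genes called higher, 6.28% of those called lower, 2.97% of those tested and 3.20% of all. GGGACTTTC was in 0.152%, 0%, 0.328% and 0.353%, and GGGAATTTC in 0.455%, 0.897%, 0.276% and 0.259%. Only these exact letters were sought for NF-kB, and such long words are seldom met in any window. Their shares therefore do not measure how common NF-kB sites are. GCGGGGGCG (EGR) was in 8.03%, 5.38%, 5.99% and 2.91%, TGACGTCA (CRE) in 3.18%, 4.04%, 3.12% and 1.79%, CACGTG (E-box) in 9.24%, 7.62%, 9.75% and 7.15%, and GAAANNGAA in 6.82%, 5.83%, 6.62% and 8.56%. The serum response letters CCATATTAG were in 0.152%, 0%, 0.121% and 0.103%, and CCATATAAG in 0%, 0%, 0.104% and 0.128%. These shares are descriptions, and the median GC content of the windows was 61.7%, 60%, 61.7% and 52.7% in the same order.

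Some resident and monocyte markers fell, and 0 of either list were called higher. Of 9 resident and perivascular markers tested 3 were called lower, with a median of -0.42. Of 10 monocyte markers 3 were called lower, with a median of -0.44. Over all genes tested 4.17% were called lower. Timd4, a receptor for phosphatidylserine on dying cells, had 411 and 418 CPM on ND and 225 and 199.9 CPM on HFD, 1.95-fold lower. F13a1, the A subunit of clotting factor XIII and one of the most abundant transcripts, had 14114 and 12042 CPM on ND and 8565 and 8785 CPM on HFD. Marco, a scavenger receptor for bacteria, had 10.3 and 7.10 CPM on ND and 3.30 and 1.91 CPM on HFD. The decrease of F13a1 lay at the limit (log2 -0.59, 1.51-fold), and it was not called after the GC and length correction (-0.52), without HFD replicate 1 (-0.57) or without ND replicate 1 (-0.50).

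Lyve1, which marks perivascular macrophages and lymphatic vessels, had a log2 fold change of 0.05 and changed sign between scalings. Of the monocyte list, Fn1, fibronectin, had 1498 and 1289.7 CPM on ND and 599 and 756 CPM on HFD. Fn1 was 2.06-fold lower, without overlap. Chil3 had 19.8 and 8.78 CPM on ND and 6.81 and 10.2 CPM on HFD; its groups overlapped, DESeq2 gave adjusted p = 0.375, and without ND replicate 1 its log2 fold change was -0.07 instead of -0.74.

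Only 7 of 25 listed lipid-associated macrophage genes could be tested, so this list remains mostly untested. Of the 7, Mmp12 was called lower and 0 were called higher, with a median of -0.12. After the GC and length correction 2 were called lower and 0 higher, with a median of -0.35. Fcgr1 of the macrophage markers, at 224 and 209 CPM on ND and 143 and 148 CPM on HFD, was just short of the fold limit (log2 -0.58). It was called after the GC and length correction (-0.67), and the other 4 macrophage markers that could be tested, Adgre1, Cd14, Ptprc and Spi1, had log2 fold changes from -0.31 to 0.37 and were not called.

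**Figure D4:**
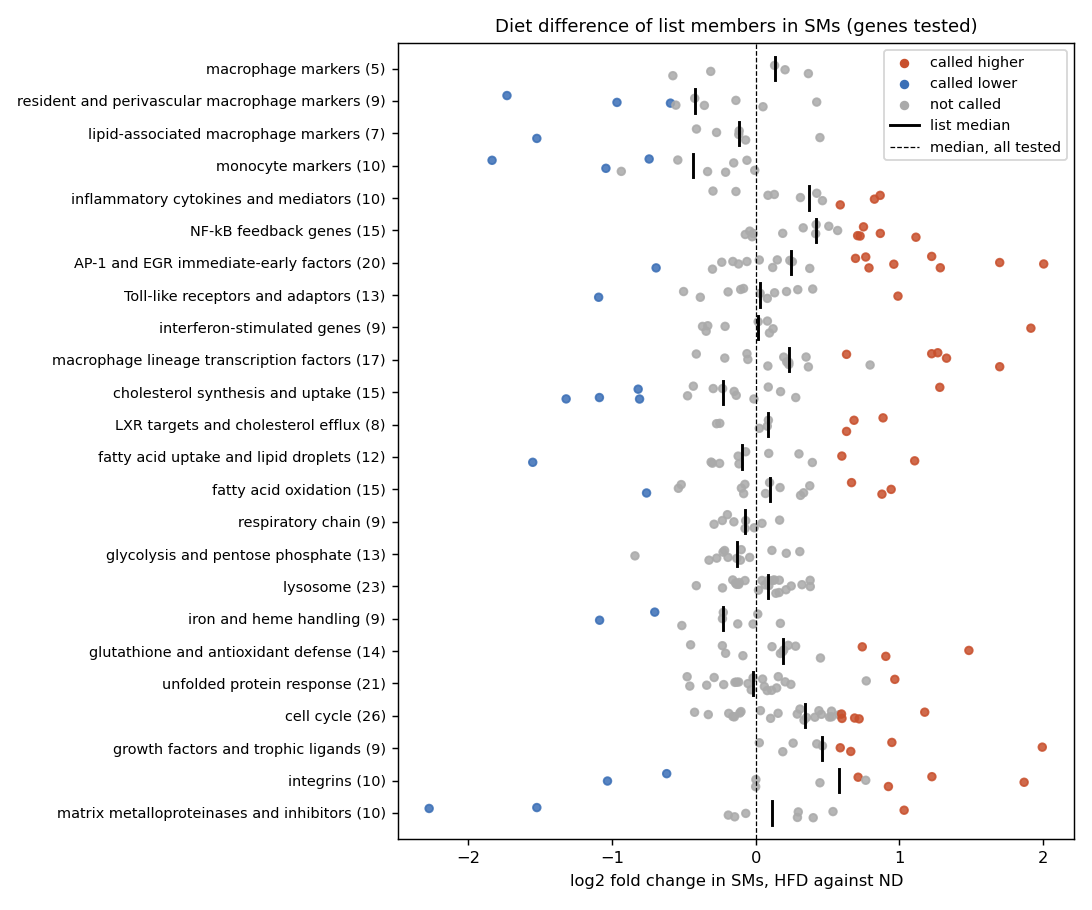
Log2 fold change in SMs, HFD against ND, of each tested member (points) of 24 gene lists, with the number tested in brackets, black bars at the list medians and a dashed line at the median of all genes tested (0.01). Red points (called higher) are 44.4% of the growth factor list, 40.0% of the AP-1 and EGR list and of the integrins. They are 37.5% of the LXR and 33.3% of the NF-kB list. The lysosome, respiratory chain and glycolysis lists hold grey points only.

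Lineage transcription factors had 5 of 17 called higher and 0 lower, beside 11.7% and 4.17% of all genes tested. Their median was 0.23. Cebpa, a master factor of myeloid cells, had 202 and 212 CPM on ND and 538 and 502 CPM on HFD, 2.51-fold higher. Bhlhe41, a repressor known from tissue macrophages and the clock, had 11.4 and 8.54 CPM on ND and 24.5 and 23.5 CPM on HFD. Klf2 and Klf4, counted above, and Nr1h3 were the others, and Spi1, which encodes PU.1, had 584 and 572 CPM on ND and 743 and 749 CPM on HFD without passing the fold limit. All HFD values of these genes lay above the ND values, as for 666 of the 667 genes called higher and 36.6% of all tested.

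Of 15 genes of cholesterol synthesis and uptake 4 were called lower and 1 higher, beside 4.17% and 11.7% of all genes tested. Their median was -0.23. Stard4, a carrier of cholesterol within the cell, had 34.3 and 48.7 CPM on ND and 19.6 and 19.6 CPM on HFD. It was 2.12-fold lower.

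Fdps, an enzyme that makes farnesyl diphosphate, had 21.0 and 25.6 CPM on ND and 12.5 and 14.2 CPM on HFD. Hmgcs1, an early enzyme of the pathway, had a log2 fold change of -0.23 and did not pass. Both HFD libraries were below both ND libraries for Stard4 and Fdps, as for 237 of the 238 genes called lower.

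Of 8 LXR targets and cholesterol efflux genes 3 were called higher and 0 lower, beside 11.7% and 4.17% of all genes tested. After the GC and length correction 1 was called higher and 1 lower. The summed level of the 8 genes was lower on HFD, at 9273 and 8440 FPKM on ND and 6869 and 6439 FPKM on HFD. Abcg1, which exports cholesterol to HDL, had 94.4 and 60.03 CPM on ND and 134 and 151 CPM on HFD, 1.85-fold higher. The LXR receptors themselves were the others, Nr1h2 with 136 and 120.2 CPM on ND and 205 and 207 CPM on HFD, and Nr1h3 with 14.3 and 14.7 against 20.9 and 24.0 CPM. After the GC and length correction Nr1h2 (log2 0.26) and Nr1h3 (0.36) were no longer called, Nr1h3 was also lost without HFD replicate 2 (0.52), and the list's median of 0.09 changed sign under other scalings.

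Fat breakdown was represented by a few genes. Pnpla2, the first lipase of triglyceride breakdown, had 139.7 and 137 CPM on ND and 303 and 294 CPM on HFD, 2.15-fold higher. Mgll, the monoglyceride lipase that ends it, had 12.7 and 16.5 CPM on ND and 26.7 and 17.7 CPM on HFD, a log2 fold change of 0.60 that lay at the limit. Mgll was not called without HFD replicate 1 (0.27), without ND replicate 1 (0.41), after the GC and length correction (0.36), by DESeq2 (adjusted p = 0.0615) or with all 8 libraries in one edgeR fit (adjusted p = 0.105). Plin4, a lipid-droplet coat protein, was the third of the 12 droplet and uptake genes called, at 14.8 and 20.3 CPM on ND and 6.39 and 5.61 CPM on HFD.

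Of 15 fatty acid oxidation genes 3 were called higher and 1 lower, beside 11.7% and 4.17% of all genes tested. The list's median of 0.10 changed sign in 3 alternatives, so no direction is given for it. Ucp2, an uncoupling protein of mitochondria, had 1524 and 1538 CPM on ND and 2858 and 2773 CPM on HFD. Ppard, a fatty acid receptor, had 64.3 and 61.0 CPM on ND and 122 and 119 CPM on HFD. Cpt1b, which lets fatty acids into mitochondria, rose 1.59-fold with a log2 fold change of 0.67, and the peroxisomal enzyme Ehhadh fell by 0.76 on the log2 scale. Cpt1b lost its call after the GC and length correction (0.49) and without ND replicate 1 (0.56), and Ehhadh without HFD replicate 2 (-0.71).

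No tested gene of the lysosome, glycolysis and pentose phosphate, respiratory chain or ribosomal protein lists was called in the edgeR fit without the GC and length correction. Those tested were 23 of 47 listed lysosome genes and 13 of 26 of glycolysis and the pentose phosphate pathway. Of the respiratory chain 9 of 51 were tested, and of the cytosolic ribosomal protein genes 5 of 75. Of these tested genes 0 were called in either direction in that fit, beside 15.8% of all genes tested. The respiratory chain and ribosomal lists thus remain mostly untested. The medians were 0.09, -0.13, -0.07 and 0.13. After the GC and length correction 2 genes of glycolysis and the pentose phosphate pathway were called lower and their median was -0.28. No direction is given for the lysosome, whose median was -0.01 after that correction, or for the respiratory chain, whose median was 0.02 without ND replicate 1. Of the 2 CXC chemokines, 3 Fc receptors and 3 lymphatic endothelial markers tested, 0 were called, and 1 Fc receptor was called lower after the correction. In other lists the correction took the number called higher from 5 to 3 for NF-kB feedback, from 4 to 2 for growth factors, from 3 to 1 for LXR targets, from 2 to 1 for lipid droplets and uptake, and from 1 to 0 for complement and for cholesterol synthesis.

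Iron genes had 2 of 9 called lower and 0 higher, beside 4.17% and 11.7% of all genes tested. Slc40a1, ferroportin that exports iron from macrophages, had 251 and 253 CPM on ND and 127 and 110.4 CPM on HFD, 2.12-fold lower. Tfrc, the transferrin receptor that brings iron in, had 772 and 821 CPM on ND and 481 and 498 CPM on HFD, 1.63-fold lower. Exporter and importer were thus both lower in both HFD libraries, and the decrease of Tfrc fell short of the fold limit after the GC and length correction (log2 -0.47).

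Antioxidant genes had 3 of 14 called higher (21.4%) and 0 lower, beside 11.7% and 4.17% of all genes tested. Gclc, the rate-limiting enzyme of glutathione synthesis, had 80.2 and 82.0 CPM on ND and 150.3 and 154 CPM on HFD. Sod3, a secreted superoxide dismutase, had 3.98 and 5.41 CPM on ND and 13.4 and 13.03 CPM on HFD. Osgin1 rose 1.67-fold and was not called after the GC and length correction (log2 0.36).

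Stress lists had few calls. Of 21 genes of the unfolded protein response 1 was called, Herpud1, which serves the degradation of misfolded proteins and had 306 and 322 CPM on ND and 614 and 614 CPM on HFD. Of 17 heat shock genes 1 was called, Dnaja4, at 5.64 CPM or less in each library; DESeq2 gave adjusted p = 0.194, and it lost its call without HFD replicate 1 (log2 0.56) or without ND replicate 1 (0.67) or ND replicate 2 (0.92). Of 12 hypoxia genes Ndrg1 and Ddit4 were called higher. Ndrg1 had 16.3 and 19.0 CPM on ND and 51.0 and 53.8 CPM on HFD, and Ddit4, an inhibitor of mTOR, had 3.47 and 3.49 CPM on ND and 6.81 and 7.31 CPM on HFD.

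Cell cycle genes had 5 of 26 called higher (19.2%) and 0 lower, beside 11.7% and 4.17% of all genes tested. Their median was 0.35. Cdt1, which licenses replication origins, had 34.8 and 28.5 CPM on ND and 66.4 and 76.6 CPM on HFD. Ccnb1, Ccnb2, Bub1 and Uhrf1 were the others, at log2 fold changes of 0.60, 0.72, 0.60 and 0.69. Mki67, the Ki67 antigen, had a log2 fold change of 0.46 and Top2a one of 0.53, and neither passed the fold limit. Bub1 was not called without any one of the 4 libraries (0.51 to 0.67), and DESeq2 gave it an adjusted p = 0.198. Uhrf1 was not called without HFD replicate 2 (0.55) or after the GC and length correction (0.52). With that correction 6 genes of the list were called higher. On the FPKM scale of limma Ccnb2 was at 0.50 and 0.42 and was not called.

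Growth factors had 4 of 9 called higher and 0 lower, beside 11.7% and 4.17% of all genes tested. Hbegf, a ligand of the EGF receptor, had 165 and 177 CPM on ND and 341 and 319.9 CPM on HFD, 1.93-fold higher. Bmp2, of the TGF-beta family, had 149 and 117 CPM on ND and 222 and 198 CPM on HFD. Angptl4 and Csf1, given above, were the others, and Bmp2 lost its call after the GC and length correction (log2 0.54) and without HFD replicate 1 (0.58) or ND replicate 2 (0.49).

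Adhesion genes moved both ways. Of 10 integrins 4 were called higher and 2 lower, beside 11.7% and 4.17% of all genes tested. Itga5, the fibronectin receptor subunit, had 338 and 361 CPM on ND and 774 and 862 CPM on HFD, and Itgb5, of a vitronectin receptor, had 84.8 and 97.3 CPM on ND and 169 and 177 CPM on HFD. Itgal, of the leukocyte integrin LFA-1, had 27.9 and 33.2 CPM on ND and 13.4 and 16.5 CPM on HFD. Itga1 and Itgb4 were also called higher at no more than 6.60 CPM, and Itgb7 lower. Itga1 lost its call without any of 3 libraries (0.65 without HFD replicate 1, 0.77 without HFD replicate 2, 0.48 without ND replicate 1) and Itgb7 without HFD replicate 1 (-0.50) or ND replicate 2 (-0.54).

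Of 10 matrix metalloproteinases and inhibitors, Mmp9 and Mmp12 were called lower and Mmp13, a collagenase, higher. Over all genes tested 4.17% were called lower and 11.7% higher. Mmp13 had 20.6 and 22.7 CPM on ND and 41.3 and 47.5 CPM on HFD, 2.05-fold higher. Vim, vimentin of the cytoskeleton and one of the 10 most abundant kept genes, had 3348 and 3533 CPM on ND and 6910.3 and 6786 CPM on HFD. Of 12 efferocytosis genes 3 were called higher, among them the bridging protein Mfge8 (42.7 and 45.4 CPM on ND, 83.2 and 69.0 CPM on HFD) and the receptor Stab2 (3.21 and 1.80 CPM on ND, 7.66 and 9.003 CPM on HFD), beside Itgb5. Timd4 was the 1 called lower, so receptors for dying cells did not move together, and Mfge8 was not called after the GC and length correction (log2 0.54).

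Other lists were thinly covered. Of 9 alternative activation genes Ccl22 and Klf4 were called higher and Chil3 lower. Of 7 dendritic cell markers Fscn1 and Ccr7 were called higher and Cd24a and Kmo lower, from 1.55 for Fscn1 to -0.70 for Cd24a on the log2 scale. Ccr7 lost its call without HFD replicate 2 (0.26 instead of 0.71) or ND replicate 1 (0.48), Kmo (-0.59) without HFD replicate 1 (-0.57) or ND replicate 2 (-0.58), and Cd24a after the GC and length correction (-0.57). That correction also ended the calls of Kmo (-0.46) and Ccr7 (0.56), which left 1 marker called higher and 0 lower, and DESeq2 gave Ccr7 an adjusted p = 0.0686. Of 7 adipocyte markers Plin4 and Car3 were called lower. Ccr3, of eosinophils, was called lower with 8.10 and 8.90 CPM on ND and 3.19 and 2.97 CPM on HFD, Itga2b, of platelets, higher with 1.29 and 2.04 against 4.04 and 3.92 CPM, and the B cell marker Ms4a1 was not called. Itga2b lost its call without HFD replicate 1 (log2 1.22) or ND replicate 1 (0.93).

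The diet difference was fitted in the same way in ARMs, where diet and table also cannot be told apart. Of the 662 genes called higher in SMs that could be tested in ARMs, 621 had a positive log2 fold change there and 399 were called higher, beside 9.8% of all 5773 genes tested in ARMs. Of 236 called lower in SMs 228 had a negative one and 122 were called lower, beside 4.12% of all. The median log2 fold change in ARMs was 0.72 for the former and -0.67 for the latter. Hcar2 was at -2.80 in ARMs and Map3k6 at 2.28, close to their SM values of -2.52 and 2.60.

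A difference between SMs and ARMs in the size of the diet difference, tested in one fit of all 8 libraries, was found for 12 of 5826 genes (0.206%), of which 8 had the larger value in SMs (0.137%) and 4 the smaller (0.0687%). An unadjusted p under 0.05 was found for 405 genes. Fbn1, fibrillin of elastic microfibrils, had 46.9 and 49.9 CPM in ND SMs and 106 and 121 CPM in HFD SMs, against 85.4 and 120.0 CPM in ND ARMs and 94.8 and 104 CPM in HFD ARMs. Fndc1 had 4.88 and 4.93 CPM in ND SMs and 17.3 and 17.5 CPM in HFD SMs, and 13.4 and 18.6 against 14.1 and 16.3 CPM in ARMs. Both matrix genes were thus lower in ND SMs than in every other library, beside 8 of 12 fibroblast markers called higher in SMs and 1 of 12 in ARMs. Of mesothelial markers 7 of 9 were called higher in SMs and 0 of 9 in ARMs. Endothelial markers were called higher in both, 8 of 11 in SMs and 10 of 11 in ARMs. So were pericyte and smooth muscle markers, with 4 of 5 in each.

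Plin4 and Car3, genes of adipocytes, had the opposite pattern. Plin4 had 29.0 and 48.3 CPM in ND ARMs and 55.6 and 46.7 CPM in HFD ARMs, where its groups overlapped, against a decrease in SMs. Car3 had 123 and 156 CPM in ND SMs, 64.7 and 61.6 CPM in HFD SMs, 245 and 385 CPM in ND ARMs and 354 and 370.0 CPM in HFD ARMs. Lep, leptin made by adipocytes, had 3.98 and 6.01 CPM in ND SMs and 5.32 and 6.36 CPM in HFD SMs, which overlapped, and 9.95 and 12.8 against 43.4 and 50.9 CPM in ARMs. The summed adipocyte list was 1127 and 1323 FPKM in ND SMs and 1135 and 985 FPKM in HFD SMs, and its part in these differences was not tested.

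Sphk1, the kinase that makes sphingosine 1-phosphate, had 29.2 and 28.5 CPM in ND SMs and 63.3 and 61.2 CPM in HFD SMs, against 55.6 and 57.1 CPM in ND ARMs and 61.9 and 62.1 CPM in HFD ARMs. Gfpt2, of the hexosamine pathway, had 12.2 and 14.2 CPM in ND SMs and 25.7 and 27.1 CPM in HFD SMs, and 40.5 and 60.4 against 33.98 and 32.6 CPM in ARMs. All 12 genes lost their call without HFD ARM replicate 1, when 0 genes were called, and without ND SM replicate 1 the counts were 1 larger in SMs and 4 smaller. They were 4 and 1 without ND SM replicate 2, 14 and 5 without HFD SM replicate 2, 8 and 1 without HFD ARM replicate 2, 65 and 6 without ND ARM replicate 1, and 18 and 22 without ND ARM replicate 2.

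**Figure D5:**
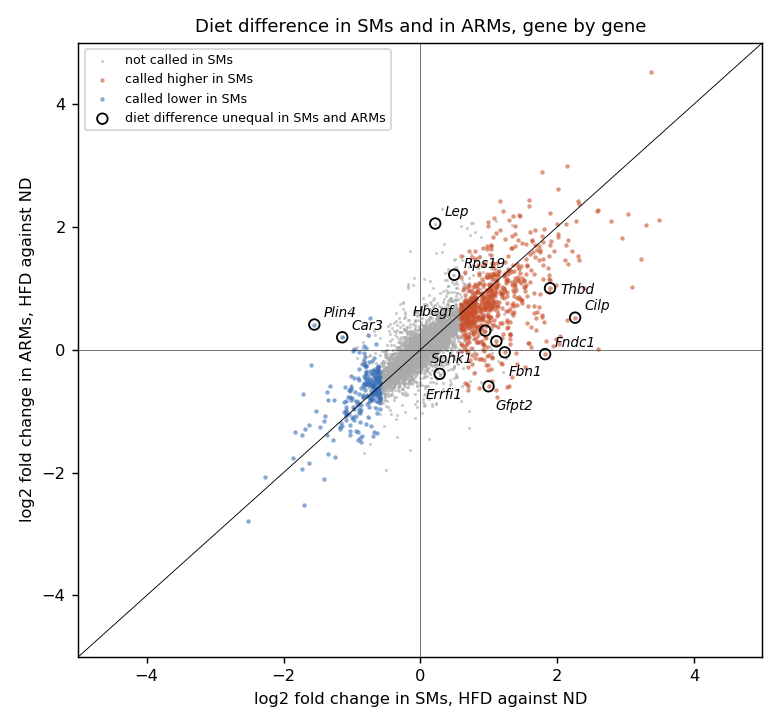
Log2 fold change on HFD against ND in SMs (horizontal axis) and in ARMs (vertical axis) of 5679 genes tested in both, with the line of equal values. Rings mark the 12 genes whose diet difference was unequal, such as Fbn1 at 1.23 and -0.04 and Plin4 at -1.55 and 0.41; most coloured points lie along the line.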

How the data were processed

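Total RNA of the sorted cells was extracted with Trizol, and 200 ng was used for each library. The authors deposited 1 table for each diet, which gives expected counts (estimated counts of reads, not always whole) beside deposited FPKM and TPM of each gene. The submitters' processing notes name the mm10 build; the aligner and counting program are not given in the sources used here. Libraries whose titles read NARM are the SMs. Deposited TPM values and the authors' averaged columns were not used.

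Members and lists were chosen with earlier results of these data known. SM libraries held 14861075 to 19040133 expected counts, 50.5% to 51.5% of them on the kept genes. Counts were whole numbers for kept genes and were fitted with edgeR 4.0.16 in R 4.3.3 (filterByExpr, TMM factors 0.977 to 1.02, quasi-likelihood test, Benjamini-Hochberg adjustment) on the 4 SM libraries; ARMs were fitted likewise, and the difference between SMs and ARMs on all 8 libraries. Each library pooled mice, and the sources do not say how pools were divided, so p-values measure only the spread between these libraries, which may be technical. Replicates differed by more than counting noise (mean chi-square per gene 7.85 on ND and 6.19 on HFD), and the biological coefficient of variation was 6.29%. CPM are counts scaled to 1e6 reads on the genes tested and by the TMM factors. FPKM were used for levels, and with limma 3.58.1 on log2(FPKM + 1) and log2(FPKM + 0.1) as alternatives. DESeq2 1.42.0, other normalizations and filters, a GC and length correction (loess, span 0.5), other length limits, the replicate number as a block and each library left out were the further alternatives. Genes named were the 15 largest called changes in each direction at 10 CPM or more whose groups did not overlap, up to 4 called in each direction from each list, macrophage markers, the 10 most abundant kept genes, genes named in the study, and the genes that differed most between SMs and ARMs; other members of small counts were named after their values were seen. Some genes that this rule gives are not reported here, though they stay in the counts of their lists. In simulated data with 5670 genes edgeR recovered 93.0% of 2-fold and 100% of 4-fold changes with 4 false calls, and DESeq2 84.0% and 94.9% with 0. Each simulated gene had the same spread, the 6.29% estimated from these libraries, and no effect of GC content or table. The simulated false calls are therefore not the error rate of the calls above. Counting error only is covered by these depths, since the reads carried no molecular identifiers. Figures were drawn with matplotlib 3.10.9 in Python 3.11.15.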

Additional observations from a re-analysis of the deposited data

Results flagged for a closer look

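The diet difference was unequal in SMs and ARMs, by edgeR's interaction test on all 8 libraries, for 12 genes. The log2 difference, SMs less ARMs, was 1.87 for Fndc1, 1.72 for Cilp, 1.57 for Gfpt2, 1.25 for Fbn1, 0.95 for Sphk1, 0.87 for Thbd, 0.65 for Errfi1 and 0.62 for Hbegf. It was -1.98 for Plin4, -1.86 for Lep, -1.37 for Car3 and -0.75 for Rps19. Errfi1, a feedback inhibitor of the EGF receptor, had 307 and 326 CPM in ND SMs and 379.9 and 389 CPM in HFD SMs, against 524 and 547 CPM in ND ARMs and 409.8 and 406 CPM in HFD ARMs. Rps19, a ribosomal protein gene, had 198 and 191 CPM in ND SMs and 271 and 278 CPM in HFD SMs, against 166 and 149.7 CPM in ND ARMs and 367 and 369.5 CPM in HFD ARMs. None of the 12 was called when HFD ARM replicate 1 was left out.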

How the results depend on the processing

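The number of genes called higher in SMs on HFD (667) was 440 after the GC and length correction, 433 with the replicate number as a block and that correction, 1773 over all genes in both tables, 291 at stricter length ratios, and with limma 331 on log2(FPKM + 0.1), 235 on log2(FPKM + 1) and 238 without a filter. The number called lower (238) was 689 over all genes in both tables, 88 at the stricter length ratios and 452 with limma on log2(FPKM + 0.1). With 1 library left out, 510 to 597 genes were called higher and 191 to 246 lower. ND and HFD SMs share only a replicate number (the correlation across genes of replicate 1 less replicate 2 was -0.05), and with it as a block 675 genes were called higher and 240 lower. SMs and ARMs of one diet correlated at 0.27 on ND and 0.066 on HFD, and the sources do not say whether one number marks the same pool of mice in both. Of genes with a larger diet difference in SMs than in ARMs (8), DESeq2 called 23, the fit of all genes found for both diets gave 13, the replicate block 31 and upper-quartile normalization 18, and of those with a smaller one (4) all genes in both tables gave 9 and the replicate block 7. With the number as a block within each diet, added after seeing the data, 54 were larger and 14 smaller in SMs. With 1 library left out the counts ran from 0 to 65 and from 0 to 22. The log2 fold change changed sign for Cd14 (-0.077 in the 3 limma fits), Lyve1 (-0.0044 with library totals, -0.12 and -0.11 with limma, from -0.065 to 0.15 with 1 library left out), Junb (-0.13 after the GC and length correction, also with the block) and Nos2 (from -0.61 to 2.91 with 1 library left out). The causes of these shifts were not tested. Diet and table cannot be told apart under any of these settings, and 2 libraries for each diet limit what could be detected.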

Other observations

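Among the leading genes are several known to be induced by glucocorticoids, and a list of 26 such genes was written after these values were seen, so its count is a description only. Of the 13 that could be tested 11 were called higher in SMs on HFD and 0 lower, beside 11.7% and 4.17% of all genes tested, and the median log2 fold change was 1.26, or 0.83 after the GC and length correction, when 11 were called higher; in ARMs 11 were also called higher and 0 lower, at a median of 1.14. Tsc22d3, the glucocorticoid-induced leucine zipper, had 227 and 278 CPM on ND and 677 and 584 CPM on HFD. Klf9, a transcription factor, had 152 and 186 CPM on ND and 473 and 451 CPM on HFD, and Cxcr4, a chemokine receptor, had 319.9 and 345 CPM on ND and 834 and 765 CPM on HFD. All HFD libraries lay above the ND libraries for these genes, as for 666 of the 667 genes called higher.

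A list of 19 core clock and clock-output genes, also written after the values were seen, had 3 of 11 called higher and 0 lower, and no direction is given for its median, which was 0.08 and changed sign in 6 alternatives (-0.016 after the GC and length correction). Per1 had 431 and 528 CPM on ND and 1163 and 1133 CPM on HFD, and Per2 had 71.1 and 68.1 CPM on ND and 144 and 137 CPM on HFD. Bhlhe41 was the third. The sources used here give no hour of collection for the mice.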
